A study of Mus musculus with 12 samples.

Results

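The genes described here are 7 aquaporins of the kidney, Aqp1, Aqp2, Aqp3, Aqp4, Aqp6, Aqp7 and Aqp11, and Avpr2, the vasopressin V2 receptor. They were taken by symbol from the platform annotation, with the brightest probe set per gene. These genes and the gene lists below were chosen with earlier results of these data known. Shares set beside those of all probe sets are therefore descriptive. All 8 listed genes were found, each with 1 probe set, among 22206 probe sets in all. Whole mouse kidneys in 4 groups of 3 samples were profiled on Clariom S expression arrays. Wild type mice had received vehicle. Alport mice, hemizygous for the G5X nonsense mutation of Col4a5, whose collagen chain helps to build the filter membrane of the glomerulus, had received vehicle, losartan or metformin. Losartan, a blocker of the angiotensin II type 1 receptor, was given in drinking water at 125 and later 250 µg/mL, and metformin, a biguanide, at 2.5 and later 5 mg/mL. All mice are given as 16 weeks old, although the dosing text runs on to week 20. That text also calls losartan co-administered, and each group is therefore called by the drug of its title. Whether every sample is a mouse of its own is not stated, so p-values measure the spread between samples, which may be technical.

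Aquaporins are membrane channels for water, and some of them, the aquaglyceroporins, also pass glycerol. In the collecting duct, vasopressin binds the V2 receptor on principal cells, cyclic AMP rises, protein kinase A phosphorylates aquaporin-2, and the channel moves to the apical membrane. Water then leaves the cell through aquaporin-3 and aquaporin-4 on the basolateral side. Longer exposure to vasopressin also raises Aqp2 transcription. Aquaporin-1 carries the bulk of water reabsorption in the proximal tubule and the thin descending limb, aquaporin-7 takes up glycerol in the straight proximal tubule, aquaporin-11 lies in the endoplasmic reticulum of proximal tubule cells, and aquaporin-6 sits in vesicles of intercalated cells.

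Upstream sequences are shown for Aqp2, which was higher with Alport vehicle than in wild type, for Aqp3, of the same cell type, whose mean was lower there, and for Aqp11 of the proximal tubule, which was also lower with Alport vehicle. The sequences are from RefSeq, build GRCm38.p6, and cover the 250 bases before the annotated start, read 5′ to 3′ on the gene's strand. Capitals mark matches on either strand to a pair of short motifs of kinds known from work on the Aqp2 promoter. The first, TGACG, is the core of a cAMP response element and is read as CGTCA on the other strand. The other, AGATAA, is bound by zinc finger factors such as Gata3, and on the other strand it is read as TTATCT.
Aqp2, chr15:99578806-99579055, plus strand: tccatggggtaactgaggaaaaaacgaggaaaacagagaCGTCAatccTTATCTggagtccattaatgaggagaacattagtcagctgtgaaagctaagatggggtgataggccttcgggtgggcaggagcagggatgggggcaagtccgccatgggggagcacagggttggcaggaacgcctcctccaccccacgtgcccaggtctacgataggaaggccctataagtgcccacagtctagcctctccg
Aqp3, chr4:41098184-41098433, minus strand: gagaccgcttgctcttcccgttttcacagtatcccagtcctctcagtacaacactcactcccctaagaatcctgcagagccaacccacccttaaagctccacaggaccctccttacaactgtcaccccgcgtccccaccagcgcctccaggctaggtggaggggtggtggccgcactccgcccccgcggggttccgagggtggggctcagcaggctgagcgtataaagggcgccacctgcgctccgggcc
Aqp11, chr7:97738248-97738497, minus strand: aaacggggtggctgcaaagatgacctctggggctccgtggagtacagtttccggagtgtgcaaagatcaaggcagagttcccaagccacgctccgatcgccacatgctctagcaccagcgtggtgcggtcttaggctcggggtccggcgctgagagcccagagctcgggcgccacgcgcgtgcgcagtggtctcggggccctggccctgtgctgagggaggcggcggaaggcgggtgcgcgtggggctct

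Among the 7 members whose upstream windows were searched, the core element TGACG was found in 1, Aqp2, where it lay 211 to 207 bases before the start. The motif AGATAA was found in 2, Aqp2 and Aqp7, and in Aqp2 it lay 202 to 197 bases before the start, so the matches in Aqp2 are close neighbours. The full palindrome TGACGTCA, which contains the core element, was found in 0 of these members. Of 27025 mouse genes with a window of this length 17.9% held TGACG, 10.3% held AGATAA and 1.62% held TGACGTCA. The upstream windows of Aqp3 and Aqp11 held none of these letters. Such matches describe the sequence and show no binding.

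The arrays were of similar brightness, with median log2 levels from 5.88 to 6.06 and lower quartiles from 4.18 to 4.25 per sample. Over probe sets, which are no independent replicates, 2 samples of 1 group had a Pearson r of 0.99 to 0.994 and samples of different groups had 0.975 to 0.993. Col4a5, the mutated gene, was at 5.06, 5.83 and 5.40 in wild type samples 1 to 3 and at 4.44, 4.13 and 4.97 with Alport vehicle (log2 change -0.92 ± 0.23 SE, limma adjusted p = 0.0116). Precision is limited by the number of arrays: the standard error of a log2 change had a median of 0.20. When each sample was centred on its own median, the middle log2 change in Alport vehicle against wild type went from -0.03 to -0.17, and the calls from 1871 higher and 1711 lower to 1451 and 2842. In whole kidney RNA, fewer cells of a type and less RNA per cell cannot be told apart.

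Against wild type, vehicle-treated Alport kidneys had more Aqp2 and less of several other aquaporins. Aqp2 rose 2.81-fold, and Aqp4, Aqp11, Aqp7 and Aqp1 fell by 1.78, 1.13, 0.93 and 0.55 on the log2 scale. A change was called at a Benjamini-Hochberg adjusted p under 0.05 over all probe sets in a limma model of all 12 samples. By this rule 1 of 8 members rose and 4 fell, where 8.43% and 7.71% of all probe sets did (16.1% in either direction). Shares of all probe sets, here and below, are lower than those of brighter probe sets. With the dimmest 33.3% left out, 3650 were called, beside 3582 among all 22206. Against Alport vehicle these counts were 1878 beside 1755 with losartan and 1207 beside 1096 with metformin. The median log2 change of the 8 genes was -0.61, and that of all probe sets was -0.03. In 6 of the 8 genes the 3 Alport vehicle and the 3 wild type samples did not overlap, as in 29.7% of all probe sets.

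**Figure D1:**
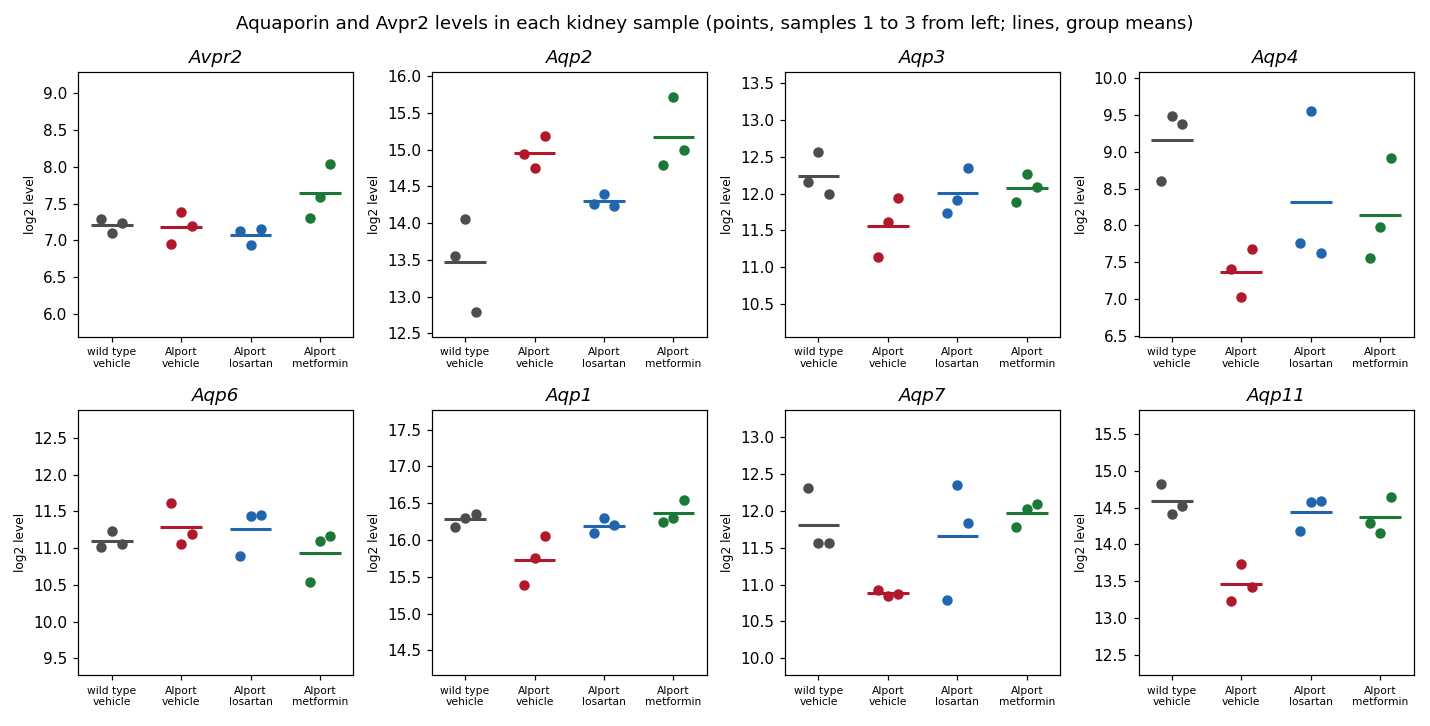
Log2 level (vertical axis, the same height of scale in each panel) of the 8 genes in each sample, by group; points are samples and lines are group means. Aqp2 lay between 14.75 and 15.18 with Alport vehicle and between 12.79 and 14.06 in wild type, whereas Aqp11 was lower with Alport vehicle (13.23 to 13.73) than in each of the other groups.

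The receptor showed little difference between the vehicle groups. Avpr2 was at 7.29, 7.10 and 7.23 on the log2 scale in wild type samples 1 to 3 and at 6.95, 7.39 and 7.19 with Alport vehicle, so that these groups overlapped. The log2 change was -0.03 ± 0.19 (SE, n = 3 per group, limma adjusted p = 0.948), with a 95% interval from -0.44 to 0.38. With losartan it was at 7.13, 6.94 and 7.15. With metformin the values were 7.30, 7.59 and 8.04, all above the wild type samples, and sample 3 stood highest of the 12. Metformin against vehicle gave 0.47 ± 0.19 (limma adjusted p = 0.195) and metformin against losartan 0.57 ± 0.19 (limma adjusted p = 0.430). Neither difference passed the test, and without metformin sample 3 they were 0.27 and 0.37 (limma adjusted p = 0.588 and 0.602). Without metformin sample 1 they were 0.64 and 0.74 (limma adjusted p = 0.0935 and 0.491).

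Aqp2, the apical channel that vasopressin controls, was at 13.55, 14.06 and 12.79 in the wild type samples. With Alport vehicle it was at 14.94, 14.75 and 15.18. Each Alport vehicle sample lay above each wild type sample, and wild type sample 3 was the lowest of all 12. The log2 change was 1.49 ± 0.28 (limma adjusted p = 0.00142), and it ranged from 1.15 to 1.79 with 1 sample left out, with an adjusted p of at most 0.00851. Losartan samples were at 14.26, 14.40 and 14.23, a narrow band between the wild type and the Alport vehicle samples with no overlap with either. The losartan difference from vehicle, -0.66 ± 0.28 (limma adjusted p = 0.183), and from wild type, 0.83 ± 0.28 (limma adjusted p = 0.246), both missed the threshold. The latter was 0.49 without wild type sample 3 and 1.13 without wild type sample 2 (limma adjusted p = 0.682 and 0.131). Metformin samples were at 14.79, 15.72 and 14.99, in the range of Alport vehicle or above it. The difference from vehicle was 0.21 ± 0.28 (limma adjusted p = 0.770). Against wild type Aqp2 rose with metformin too, by 1.70 ± 0.28 on the log2 scale or 3.25-fold (limma adjusted p = 0.00261). It was the only 1 of the 8 genes called in that comparison, in which 2.7% of all probe sets were called higher and 1.48% lower (4.18% in all). In that comparison 2 of the 8 genes, Aqp2 and Avpr2, did not overlap between the groups, as in 22.8% of all probe sets.

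Aqp3, a basolateral channel of principal cells that passes water and glycerol, was at 12.16, 12.57 and 12.00 in wild type. With Alport vehicle it was at 11.14, 11.61 and 11.94, below each wild type sample. The log2 difference of -0.68 ± 0.23 narrowly missed the threshold (limma adjusted p = 0.0518). It passed without Alport vehicle sample 3, at -0.87 (limma adjusted p = 0.0236), and after centring samples on their medians, at -0.82 (limma adjusted p = 0.0171). It also passed without the dimmest probe sets (0.0415), with a trended robust prior (0.0302) and with array weights (0.0499). It was further from passing with new quantile normalization (-0.56, 0.113), with a model of these groups alone (0.078), without Alport vehicle sample 1 (-0.47, 0.230) and without wild type sample 2 (-0.52, 0.202). Nor did it pass without Alport vehicle sample 2 (0.0802), wild type sample 1 (0.0919) or wild type sample 3 (0.0529). Losartan samples were at 11.74, 11.92 and 12.35 and metformin samples at 11.88, 12.27 and 12.09. Both drug groups overlapped with Alport vehicle and with wild type, and their differences from vehicle, 0.44 ± 0.23 and 0.52 ± 0.23, did not pass (limma adjusted p = 0.297 and 0.226). Without Alport vehicle sample 1 they were 0.23 and 0.31, and without losartan sample 3 the former was 0.27.

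Aqp4, the other basolateral water channel of principal cells, was at 8.60, 9.48 and 9.38 in wild type and at 7.41, 7.02 and 7.68 with Alport vehicle. It fell by 1.78 ± 0.43 on the log2 scale, or 3.44-fold (limma adjusted p = 0.00851), and the groups did not overlap. Among the losartan samples 1 and 3 it was at 7.76 and 7.63, near the Alport vehicle level, while losartan sample 2 was at 9.55, above every wild type sample. The mean difference of losartan from vehicle, 0.94 ± 0.43 (limma adjusted p = 0.223), was 0.32 without losartan sample 2. Metformin samples were spread from 7.55 over 7.98 to 8.91, overlapping with both vehicle groups (0.78 ± 0.43 against Alport vehicle, limma adjusted p = 0.361), and that difference was 0.39 without metformin sample 3 (limma adjusted p = 0.765). Both drug means of Aqp4 thus rested largely on 1 sample each. In whole kidney RNA the levels of Aqp4 cannot be assigned to principal cells alone.

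Aqp2 was also set against its basolateral partners and its receptor within the same arrays, as a description only, since none of these differences passed a test. The log2 level of Aqp2 minus that of Aqp3 was 3.39 ± 0.36 (SD, n = 3) with Alport vehicle and 1.22 ± 0.38 in wild type, a difference of 2.17 with no overlap. For Aqp2 minus Aqp4 the difference between these groups was 3.27 and for Aqp2 minus Avpr2 it was 1.52, again without overlap. Each had a two-sided exact permutation p of 0.10, the smallest that 3 against 3 samples can give, and 0.20 after Benjamini-Hochberg adjustment over the 12 such differences computed. These pairs were chosen after the values were seen. The RNA is of whole kidney, so the differences do not show a changed balance within principal cells. With losartan Aqp2 minus Aqp3 was lower by 1.10 than with vehicle (exact permutation p = 0.10), and with metformin by 0.31, with overlapping samples (exact permutation p = 0.30).

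**Figure D2:**
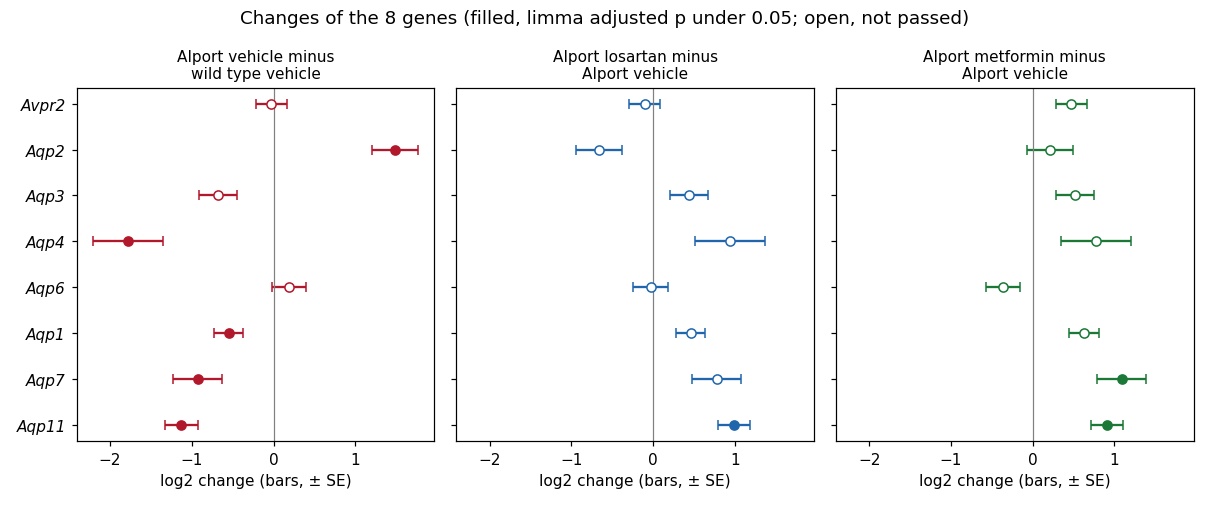
Log2 change (horizontal axis) with its standard error for the 8 genes in 3 comparisons; filled points passed limma's test at an adjusted p under 0.05. In Alport vehicle against wild type Aqp2 lies to the right of 0 at 1.49 and Aqp4 to the left at -1.78, and Aqp11 is filled in all 3 panels, at -1.13, 0.99 and 0.91.

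Other genes of the principal cell were compared to see whether they moved with Aqp2. Of 10 measured principal cell genes 2 rose in Alport vehicle against wild type and 0 fell (20% called, beside 16.1% of all probe sets). These were the sialyltransferase St6gal1 (1.99 ± 0.29, limma adjusted p = 0.000189) and the matrix protein gene Npnt (0.92 ± 0.25, limma adjusted p = 0.0182), and neither is confined to principal cells. The sodium channel subunit Scnn1b was at 0.07 ± 0.20, the glucocorticoid-inactivating enzyme Hsd11b2 at -0.39 ± 0.22, and the potassium channel Kcnj1, also of the thick ascending limb, at 0.05 ± 0.21. The median log2 change of the list was 0.11, beside -0.03 for all probe sets. The mean log2 level of the list was 9.75 to 10.14 in the wild type samples, 10.19 to 10.43 with Alport vehicle, 9.83 to 10.30 with losartan and 10.36 to 10.59 with metformin.

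With losartan 2 of the 10 principal cell genes fell against Alport vehicle (20%, beside 7.9% of all probe sets), St6gal1 (-1.42 ± 0.29, limma adjusted p = 0.0077) and Fxyd4, a regulator of the sodium pump in collecting duct (-1.02 ± 0.22, limma adjusted p = 0.0112). With metformin 0 of 10 passed limma's test in either direction, beside 4.94% of all probe sets, at a median of 0.39 beside -0.01 for all probe sets. Hsd11b2 (0.73 ± 0.22, limma adjusted p = 0.069) and Scnn1b (0.58 ± 0.20, limma adjusted p = 0.119) had the smallest p-values of the list there.

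**Figure D3:**
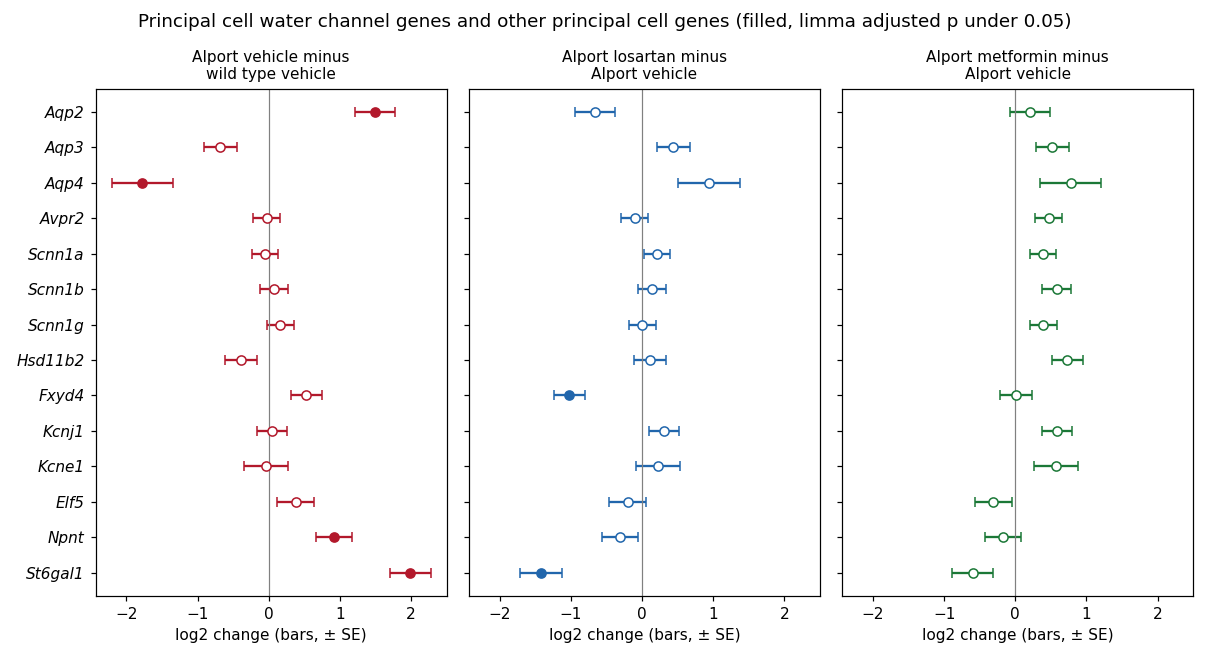
Log2 change (horizontal axis) with its standard error for Aqp2, Aqp3, Aqp4, Avpr2 and the 10 other measured principal cell genes; filled points passed limma's test at an adjusted p under 0.05. Aqp2 stands at 1.49 in Alport vehicle against wild type. In the same panel St6gal1 and Npnt are also filled to the right of 0, and Scnn1b and Kcnj1 lie near 0 at 0.07 and 0.05.

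Genes that carry or oppose the vasopressin signal were mostly below the threshold. Of 28 measured genes of vasopressin and cAMP signalling 3 rose and 2 fell in Alport vehicle (17.9% called, near the 16.1% of all probe sets), with a median log2 change of 0.10. The prostaglandin E2 receptors Ptger1 (1.45 ± 0.22, limma adjusted p = 0.000221) and Ptger4 (1.29 ± 0.22, limma adjusted p = 0.000668) and the endothelin receptor Ednrb (0.76 ± 0.19, limma adjusted p = 0.0105) rose. Prostaglandin E2 is known to modulate water transport in the collecting duct. The kinase anchor Akap11 fell by 0.74 ± 0.18 (limma adjusted p = 0.00747), and the other gene that fell was Casr, the calcium-sensing receptor. Gnas, which encodes the stimulatory G protein and had the highest signal of these genes, stood at 0.20 ± 0.17 and missed the threshold.

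With losartan 3 of the 28 passed (10.7%, beside 7.9% of all probe sets). Ptger1 and Ptger4 fell, by 1.13 ± 0.22 and 0.74 ± 0.22 (limma adjusted p = 0.00527 and 0.0494), and Prkaca, a catalytic subunit of protein kinase A, rose by 0.57 ± 0.16 (limma adjusted p = 0.0411). With metformin 1 of 28 rose (3.57%, beside 4.94% of all probe sets), Ptger3 (0.89 ± 0.23, limma adjusted p = 0.0365), another receptor for prostaglandin E2, and 0 fell. Ptger1 was at -0.76 ± 0.22 there (limma adjusted p = 0.0552).

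In the list of genes that move the aquaporin-2 protein to and from the membrane, 3 of 28 rose and 3 fell in Alport vehicle (21.4% called, beside 16.1% of all probe sets), with a median log2 change of -0.15. Anxa2, an annexin that is also a gene of injured tubules, rose by 3.23 ± 0.29 (limma adjusted p = 3.11e-06). The motor Myo5b, which carries recycling vesicles, fell by 1.12 ± 0.16 (limma adjusted p = 0.000176), and the syntaxin Stx3 and the regulator Sipa1l1 fell by 0.74 ± 0.19 and 0.60 ± 0.18 (limma adjusted p = 0.0126 and 0.0354). Rab7, a late endosome gene and the brightest of the list, was at -0.47 ± 0.16 (limma adjusted p = 0.0599). With losartan and with metformin 1 of 28 passed in each case (3.57%, below the 7.9% and 4.94% of all probe sets). This was Anxa2, which fell by 1.56 ± 0.29 and 1.11 ± 0.29 (limma adjusted p = 0.00471 and 0.0405).

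Among 20 measured regulators of transcription linked to Aqp2, 7 rose and 1 fell in Alport vehicle (40% called, beside 16.1% of all probe sets), with a median log2 change of 0.44. The Ets factors Ehf and Elf3, both of epithelia, rose by 1.57 ± 0.25 and 1.17 ± 0.24 (limma adjusted p = 0.000353 and 0.00296), and the AP-1 genes Jun and Fos rose by 1.63 ± 0.31 and 0.94 ± 0.20 (limma adjusted p = 0.00153 and 0.00391). Nr1h4, the bile acid receptor, fell by 0.84 ± 0.20 (limma adjusted p = 0.00785). Tfcp2l1, a collecting duct factor with the highest signal of these genes, stood at -0.24 ± 0.18 and missed the threshold. In whole kidney RNA these changes cannot be assigned to the cells that express Aqp2. With losartan 1 of 20 rose and 2 fell (15%, beside 7.9% of all probe sets), led by Nr1h4 (1.29 ± 0.20, limma adjusted p = 0.00135) and Jun (-1.46 ± 0.31, limma adjusted p = 0.00895). With metformin 1 rose and 1 fell (10%, beside 4.94%), Nr1h4 (0.92 ± 0.20, limma adjusted p = 0.0152) and Foxa1 (-0.84 ± 0.18, limma adjusted p = 0.0134), a forkhead factor whose mean log2 levels of 3.37 with metformin and 4.21 with vehicle are near the dim end of the arrays. Elf3 was at -0.24 ± 0.24 with metformin and at -0.78 ± 0.24 with losartan, and neither passed (limma adjusted p = 0.684 and 0.0601).

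Urine concentration also needs urea and salt in the medulla. Of 10 genes of urea and osmolyte handling 2 rose and 1 fell in Alport vehicle (30% called, beside 16.1% of all probe sets). The urea transporter Slc14a1 rose by 1.56 ± 0.35 (limma adjusted p = 0.00518) and the amino acid carrier Slc38a2 by 1.42 ± 0.21 (limma adjusted p = 0.000246). The phospholipase Pla2g6 fell by 0.68 ± 0.22 (limma adjusted p = 0.0493), and the taurine carrier Slc6a6, the brightest, was at -0.19 ± 0.17. Slc38a2 fell with both drugs, by 0.78 ± 0.21 with losartan and 0.97 ± 0.21 with metformin (limma adjusted p = 0.034 and 0.0173), as the 1 gene of the list called in each (10%, beside 7.9% and 4.94% of all probe sets). Of 9 genes of salt transport in the thick ascending limb 1 rose and 1 fell in Alport vehicle (22.2% called, beside 16.1%), the tight junction gene Cldn19 (1.17 ± 0.19, limma adjusted p = 0.000428) and Casr (-0.57 ± 0.17, limma adjusted p = 0.0343). Umod, the brightest, was at 0.23 ± 0.15. In the same list 0 of 9 passed with losartan (limma), where Casr (0.54 ± 0.17, limma adjusted p = 0.0702) and Cldn19 (-0.56 ± 0.19, limma adjusted p = 0.0882) were nearest. With metformin 2 rose (22.2%, beside 4.94% of all probe sets), the chloride channel subunit Bsnd (1.05 ± 0.24, limma adjusted p = 0.0201) and Ptger3.

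Aqp6, the intracellular channel of intercalated cells, was at 11.01, 11.23 and 11.06 in wild type and at 11.61, 11.06 and 11.19 with Alport vehicle. With losartan it was at 10.89, 11.43 and 11.45 and with metformin at 10.54, 11.09 and 11.16, and the 4 groups overlapped. The difference of Alport vehicle from wild type was 0.19 ± 0.21 (limma adjusted p = 0.640), with a 95% interval from -0.26 to 0.64. In the RefSeq annotation Aqp6 and Aqp2 lie on chromosome 15 with Aqp5 between them. The within-array difference Aqp2 minus Aqp6, a pair chosen after the values were seen, was larger by 1.30 with Alport vehicle than in wild type, without overlap. Its exact permutation p was 0.10, the smallest possible, and 0.20 after adjustment, so it could not have passed. Of 14 measured genes of intercalated cells 5 fell and 0 rose in Alport vehicle (35.7% called, beside 16.1% of all probe sets), with a median log2 change of -0.48. They included the receptor kinase Insrr (-1.79 ± 0.23, limma adjusted p = 5.97e-05), the anion exchanger Slc4a9 (-1.11 ± 0.18, limma adjusted p = 0.000441), the ammonia channel Rhcg (-0.95 ± 0.22, limma adjusted p = 0.00709) and pendrin, Slc26a4 (-0.90 ± 0.26, limma adjusted p = 0.0258). With metformin Foxi1, the transcription factor of intercalated cells, fell by 1.03 ± 0.19 against Alport vehicle (limma adjusted p = 0.00608), as 1 of 14 (7.14%, beside 4.94% of all probe sets). With losartan 0 of 14 passed limma's test, with Slc26a4 at 0.81 ± 0.26 (limma adjusted p = 0.0697). The mean log2 level of the list was 9.53 to 9.63 in wild type, 8.86 to 9.34 with Alport vehicle, 9.10 to 9.22 with losartan and 8.76 to 8.88 with metformin.

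Aqp11, the channel of the endoplasmic reticulum whose loss in mice causes cysts of the proximal tubule, was at 14.82, 14.42 and 14.52 in wild type. With Alport vehicle it was at 13.23, 13.73 and 13.42, below every sample of the other 3 groups. It fell by 1.13 ± 0.20 on the log2 scale, or 2.18-fold (limma adjusted p = 0.000768). Losartan samples were at 14.18, 14.57 and 14.59 and metformin samples at 14.29, 14.16 and 14.65. Against Alport vehicle Aqp11 rose 1.98-fold with losartan (0.99 ± 0.20, limma adjusted p = 0.00638) and 1.87-fold with metformin (0.91 ± 0.20, limma adjusted p = 0.015). Both drug groups overlapped with wild type, with log2 differences of -0.14 ± 0.20 and -0.22 ± 0.20 that did not pass (limma adjusted p = 0.865 and 0.618). The metformin call was lost without Alport vehicle sample 1 (limma adjusted p = 0.0782), without metformin sample 3 (0.0859) and when the model held only these groups (0.0509). The calls for wild type and losartan held with any 1 sample left out, at an adjusted p of at most 0.00614 and 0.0379.

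In losartan against Alport vehicle Aqp11 was the 1 member of 8 that was called, with 3.79% of all probe sets called higher and 4.11% lower (7.9% in all). In metformin against Alport vehicle 2 of 8 were called, Aqp11 and Aqp7, with 2.67% of all probe sets called higher and 2.27% lower (4.94% in all), and 0 members fell in either comparison. The samples did not overlap in 3 of the 8 genes with losartan and in 3 with metformin, as in 23.1% and 20.5% of all probe sets. The median log2 change of the 8 genes was 0.45 with losartan and 0.57 with metformin, beside 0.01 and -0.01 for all probe sets. All of these comparisons use the same 3 Alport vehicle samples, as does the one with wild type, so their signs are not independent.

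Aqp7, an aquaglyceroporin of the straight proximal tubule and of fat cells, was at 12.31, 11.57 and 11.56 in wild type. The Alport vehicle samples lay close together at 10.93, 10.84 and 10.87, below the wild type samples. It fell by 0.93 ± 0.30 on the log2 scale (limma adjusted p = 0.0434). With losartan samples 2 and 3 were at 12.35 and 11.84, while losartan sample 1 was at 10.79, below every Alport vehicle sample. The losartan difference of 0.78 ± 0.30 did not pass (limma adjusted p = 0.137). Leaving out losartan sample 1 gave 1.21, which passed (limma adjusted p = 0.00853), and leaving out losartan sample 2 gave 0.43 (limma adjusted p = 0.506). Metformin samples were at 11.78, 12.03 and 12.09, all above Alport vehicle, and Aqp7 rose 2.12-fold against it (1.09 ± 0.30, limma adjusted p = 0.048). Both calls of Aqp7 were close to the threshold, and each was lost when any 1 of its 6 samples was left out, with adjusted p-values from 0.0549 to 0.199 against wild type and from 0.0663 to 0.158 for metformin. Array weights ended both calls too (0.0683 and 0.0704), and new quantile normalization the first (0.0519).

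Aqp1, the constitutive water channel of the proximal tubule, thin descending limb and blood vessels, was at 16.18, 16.30 and 16.36 in wild type and at 15.39, 15.76 and 16.05 with Alport vehicle. It fell by 0.55 ± 0.18 on the log2 scale (limma adjusted p = 0.048), without overlap. The call was lost when any 1 sample other than Alport vehicle sample 3 was left out, with an adjusted p from 0.0739 to 0.214, when the model held only these groups (0.101), and with quantile normalization applied anew (-0.32, limma adjusted p = 0.236). Losartan samples were at 16.09, 16.30 and 16.20 and metformin samples at 16.25, 16.30 and 16.54, each above every Alport vehicle sample and within or next to the range of wild type. The differences from vehicle of 0.46 ± 0.18 with losartan and 0.63 ± 0.18 with metformin did not pass (limma adjusted p = 0.141 and 0.0549). The one with metformin passed without Alport vehicle sample 3 (limma adjusted p = 0.0299), after centring (0.0336), without the dimmest probe sets (0.0444) and with a trended robust prior (0.0151). It was further from passing with new quantile normalization (0.45, 0.157), with a model of these groups alone (0.148), without Alport vehicle sample 1 (0.46, 0.223) and without metformin sample 3 (0.54, 0.212). The losartan difference was 0.29 without Alport vehicle sample 1 (0.455).

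Other proximal tubule genes moved in the same direction as Aqp11, Aqp7 and Aqp1. Of 16 measured, 14 fell in Alport vehicle and 0 rose (87.5% called, beside 16.1% of all probe sets), with a median log2 change of -0.81. The regulator Hnf4a fell by 1.31 ± 0.16, the amino acid carrier Slc7a13 by 1.83 ± 0.24, the anion carrier Slc22a30 by 1.74 ± 0.25 and the dicarboxylate carrier Slc13a3 by 1.49 ± 0.23 (limma adjusted p = 4.16e-05, 7.28e-05, 0.000178 and 0.00028). Slc34a1, the phosphate carrier and the brightest of the list, fell by 0.56 ± 0.15 (limma adjusted p = 0.0169). With losartan 8 of 16 rose (50%, beside 7.9% of all probe sets), with Hnf4a at 1.22 ± 0.16 and Slc7a13 at 1.77 ± 0.24 (limma adjusted p = 0.00053 and 0.000576). With metformin 6 of 16 rose (37.5%, beside 4.94%), with Slc13a3 at 1.34 ± 0.23 and Slc7a13 at 1.29 ± 0.24 (limma adjusted p = 0.00469 and 0.00711). The mean log2 level of the list was 16.50 to 16.51 in wild type, 15.41 to 15.72 with Alport vehicle, 16.05 to 16.47 with losartan and 16.19 to 16.40 with metformin. Its part in the falls of Aqp1, Aqp7 and Aqp11 was not tested.

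**Figure D4:**
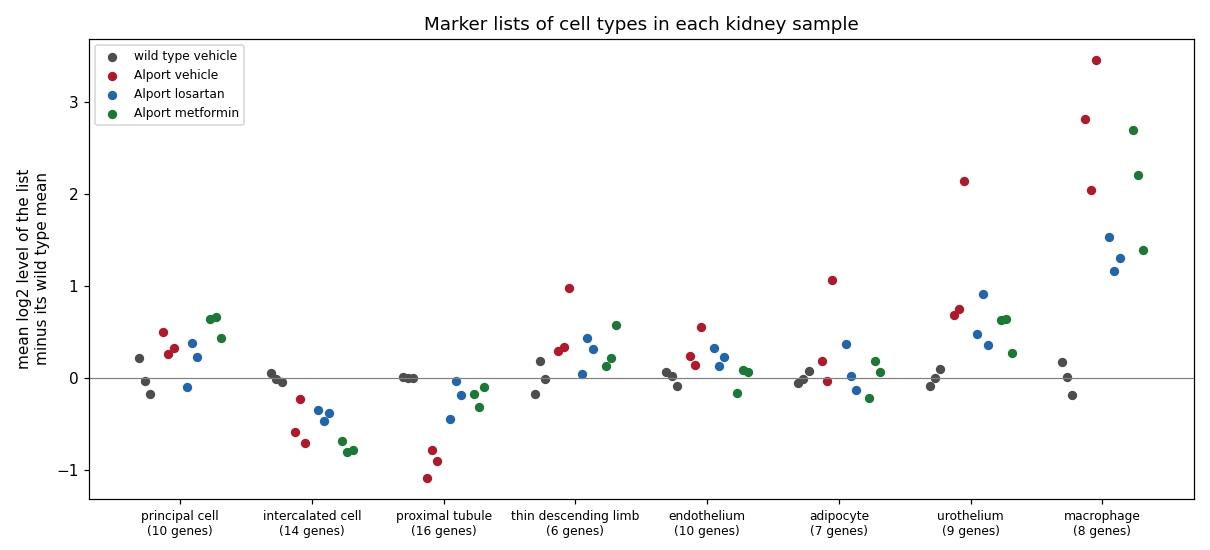
Mean log2 level of 8 marker lists minus the list's wild type mean (vertical axis) in each sample, by cell type and group. The proximal tubule list is lower with Alport vehicle than in the other groups (15.41 to 15.72 against 16.50 to 16.51 in wild type before subtraction), and the macrophage list is higher in all 3 Alport groups.

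Aqp1, Aqp3 and Aqp7 are also expressed outside these tubules, and markers of those cells were read in the same arrays. For Aqp1, 3 of 6 genes listed for the thin descending limb rose and 0 fell in Alport vehicle (50% called, beside 16.1% of all probe sets). These were Bst1 at 1.03 ± 0.19, Jag1 at 0.74 ± 0.20 and Fst at 0.87 ± 0.26 (limma adjusted p = 0.00128, 0.017 and 0.03). In whole kidney RNA it cannot be told which cells the rise of these 3 genes came from. Of 10 endothelial genes 1 rose and 1 fell (20%), Emcn at 0.73 ± 0.20 and the VEGF receptor Kdr at -0.69 ± 0.19 (limma adjusted p = 0.0191 and 0.0221). Of the red blood cell list only Alas2 was measured of 10 genes, and it fell by 1.09 ± 0.23 (limma adjusted p = 0.00368), so that list says little. The mean log2 levels of the thin descending limb and endothelial lists were 6.17 to 6.53 and 9.82 to 9.97 in wild type, 6.64 to 7.32 and 10.05 to 10.46 with Alport vehicle, 6.38 to 6.78 and 10.03 to 10.23 with losartan, and 6.47 to 6.92 and 9.74 to 9.99 with metformin. Their part in the level of Aqp1 was not tested.

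With losartan 1 of 6 thin descending limb genes fell, Jag1 (-1.20 ± 0.20, limma adjusted p = 0.00211), and 1 of 10 endothelial genes rose, Kdr (0.72 ± 0.19, limma adjusted p = 0.0329). With metformin Jag1 (-0.74 ± 0.20, limma adjusted p = 0.0428) and the endothelial gene Pecam1 (-0.71 ± 0.17, limma adjusted p = 0.0281) fell, as 1 of 6 and 1 of 10. These are 16.7% and 10% of the lists with each drug, beside 7.9% of all probe sets with losartan and 4.94% with metformin.

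For Aqp7, 0 of 7 adipocyte genes passed limma's test in Alport vehicle, with Plin1 of lipid droplets at 0.66 ± 0.23 and Fabp4 at 0.89 ± 0.35 (limma adjusted p = 0.0603 and 0.1). This list had a mean log2 level of 5.42 to 5.55 in wild type, 5.44 to 6.55 with Alport vehicle, 5.35 to 5.85 with losartan and 5.26 to 5.66 with metformin, and 2 of its 7 genes had group means below the lower quartile of every sample in all groups. With either drug 0 of 7 passed limma's test too, with Fabp4 at -0.85 ± 0.35 and -0.89 ± 0.35 (limma adjusted p = 0.166 and 0.164). For Aqp3, which urothelium also expresses, 3 of 9 urothelial genes rose in Alport vehicle (33.3%, beside 16.1% of all probe sets), Krt20 (2.71 ± 0.58), Psca (2.58 ± 0.55) and the uroplakin Upk1b (1.06 ± 0.28), with limma adjusted p = 0.00391, 0.00392 and 0.014. The urothelial list had a mean log2 level of 4.94 to 5.12 in wild type and 5.71, 5.78 and 7.17 in Alport vehicle samples 1 to 3, and Aqp3 was at 11.94 in that sample 3, its highest value with Alport vehicle. This sample was not particular to urothelium. It was also the highest of its group for the adipocyte (6.55), thin descending limb (7.32), endothelial (10.46) and macrophage (9.87) lists, and for Aqp1, Aqp2 and Aqp4. For the proximal tubule, principal cell and intercalated cell lists it was not the highest. The urothelial list was at 5.38 to 5.94 with losartan, where Krt20 fell (-2.18 ± 0.58, limma adjusted p = 0.0303), and at 5.30 to 5.67 with metformin, where Upk1b fell (-1.21 ± 0.28, limma adjusted p = 0.02). Its part in the level of Aqp3 was not tested.

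Macrophage marker RNA was also higher with Alport vehicle than in wild type. Of 8 macrophage genes 7 rose in Alport vehicle (87.5% called, beside 16.1% of all probe sets), such as Lyz2 at 6.31 ± 0.49 and C1qc at 2.82 ± 0.32 (limma adjusted p = 7.1e-07 and 1.99e-05). Its mean log2 level was 6.22 to 6.58 in wild type, 8.45 to 9.87 with Alport vehicle, 7.57 to 7.94 with losartan and 7.80 to 9.10 with metformin. With losartan 5 of 8 fell (62.5%, beside 7.9% of all probe sets), with Lyz2 at -2.85 ± 0.49 and Fcer1g at -1.31 ± 0.26 (limma adjusted p = 0.00253 and 0.00631), and with metformin 0 of 8 passed limma's test, with Fcer1g at -0.66 ± 0.26 (limma adjusted p = 0.165). The part of macrophages in the aquaporin levels was not tested.

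The drugs were also set against each other and against wild type. Between metformin and losartan 0 of 8 members passed limma's test, where 0.045% of all probe sets did (0.018% higher, 0.027% lower), and 2 had an unadjusted p under 0.05. These were Aqp2, higher by 0.87 ± 0.28 with metformin (limma adjusted p = 0.400, 95% interval from 0.28 to 1.46), and Avpr2, given above. In each of these the 3 metformin and 3 losartan samples did not overlap, as in 13.5% of all probe sets. Between losartan and wild type 0 of 8 passed limma's test, where 0.549% of all probe sets did (0.401% higher, 0.149% lower). Only Aqp2, 1 of 8, had an unadjusted p under 0.05 and no overlap there, the latter as in 16.7% of all probe sets. For Aqp4 the difference from wild type was -0.84 ± 0.43 with losartan and -1.01 ± 0.43 with metformin (limma adjusted p = 0.515 and 0.224), with 95% intervals from -1.75 to 0.07 and from -1.92 to -0.10.

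For the 4 members whose group means spanned at least 1 on the log2 scale, the genes of most similar profile were sought among 19497 named genes, by the root mean square difference of log2 levels over the 12 samples after centring each gene on its mean. Nearest to Aqp2 were Tspo, Bcl2a1d and Mal2, at 0.319, 0.343 and 0.358, where the median gene was at 0.796. Nearest to Aqp11 were Lmbrd2, Adhfe1 and Aldh6a1, at 0.124, 0.128 and 0.135, with a median gene at 0.528. Aqp7 was nearest to Slc18b1, Pomt1 and Tmem185a, at 0.197, 0.215 and 0.231 (median gene 0.608). Aqp4 had no neighbour as close, with Car9, Fam107a and Hnf4g at 0.491, 0.492 and 0.501 (median gene 0.879). The values describe these 12 arrays, which all genes share.

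Of 5 other aquaporin genes on the array, Mip, Aqp5, Aqp8, Aqp9 and Aqp12, 1 fell in Alport vehicle (20%, beside 16.1% of all probe sets), Aqp8 (-0.80 ± 0.24, limma adjusted p = 0.0309), and 0 passed with either drug by limma. Their signals were low. The mean log2 level of the 5 genes was 4.12 to 4.46 in wild type, 4.06 to 4.18 with Alport vehicle, 4.13 to 4.21 with losartan and 4.0 to 4.13 with metformin, close to the lower quartile of the arrays, so the size of that change is uncertain. Aqp9 had group means below the lower quartile of every sample in all groups. Aqp5, between Aqp2 and Aqp6, was at 4.20, 4.66 and 4.12 in wild type and at 4.07, 4.82 and 4.27 with Alport vehicle.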

How the data were processed

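Biotinylated DNA from whole-kidney RNA of 12 mouse samples was hybridised to Clariom S arrays. The table deposited by the authors has 22206 probe sets in rows and a log2 value for each sample; their range, 2.3 to 19.88, gave the scale. Per the submitters' processing notes, Transcriptome Analysis Console 4.0 was used. The background correction, normalization and summarisation used were not given in the sources used here. Names came from the platform annotation, with symbols brought up to date through Entrez identifiers in RefSeq: 19572 had 1 symbol, 0 several and 2634 none.

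Groups came from sample titles. A mean per group was fitted to all probe sets with limma 3.58.1 (lmFit, eBayes; R 4.3.3; 8 residual degrees of freedom), with two-sided tests and Benjamini-Hochberg adjustment over all probe sets of each of 6 comparisons; intervals are 95%. The procedure was tested on simulated data. The members, gene lists and tests were chosen with earlier results of these data known. Lists are described by counts and medians. From each list were named up to 4 called genes of smallest p against wild type, 2 of smallest p per drug, and the brightest; other list genes (Casr among the signalling genes, Scnn1b and Hsd11b2 against wild type, Aqp5, and repeats of a named gene in another comparison) were named after their values were seen. Alternatives were centring, quantile normalization, leaving out the dimmest 33.3%, a trended robust prior, array weights, fitting only the groups compared, a replicate block, a 2-fold rule and leaving out each sample.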

Additional observations from a re-analysis of the deposited data

How the results depend on the processing

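The members called in Alport vehicle against wild type (5) were 3 after quantile normalization and 3 by an unadjusted p with a 2-fold change, 6 with centring, 6 without the dimmest probe sets, 6 with a trended robust prior, 5 with array weights, 4 with a model of only these groups, and 3 to 5 with 1 sample left out (all probe sets, 2549 to 3756). In losartan against vehicle the 1 member called became 0 by the 2-fold rule and 1 to 2 with 1 sample left out (716 to 2073 probe sets). In metformin against vehicle the 2 members called became 3 with centring, without the dimmest probe sets and with a trended robust prior, 1 by the 2-fold rule, 1 with array weights, 1 when the model held only these groups (410 probe sets against 1096) and 0 to 2 with 1 sample left out (266 to 1320). Metformin against losartan had 10 calls, 17 with array weights, 3 with a model of only these groups and 5 to 91 with 1 sample left out. Losartan against wild type had 122, and 195, 285 and 37 to 62 under the same settings. Metformin against wild type had 928, and 346 to 1019 with 1 sample left out, with 2 members by the 2-fold rule in place of 1. Centring turned the losartan change of Aqp6 from -0.03 to 0.06, and changed the splits from 842 higher and 913 lower to 1238 and 724 with losartan, from 592 and 504 to 827 and 381 with metformin, and from 599 and 329 to 513 and 486 for metformin against wild type.

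Same-numbered samples of different groups had deviations from their group means that correlated at -0.14 to 0.078, with 0 of 18 pairs above 0.1. For samples of unlike number this was -0.198 to 0.262, with 2 of 36 pairs above 0.1. No shared shift of same-numbered samples was thus seen, but this cannot show whether they were handled together. With the replicate number as a block, 1 member was called in metformin against vehicle in place of 2 (Aqp7, adjusted p = 0.068), and in Alport vehicle against wild type Aqp7 was lost (0.06) and Aqp3 gained (0.0387).

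Of 624 values of single members under an alternative, 568 kept their direction and side of the threshold, 27 lost a call, 11 gained one and 18 changed sign, 17 of them with 1 sample left out. Only members called in the main model could lose a call. These were 5 of 8 in Alport vehicle against wild type, 1 with losartan, 2 with metformin and 1 for metformin against wild type. Most of the 568 were uncalled values that stayed uncalled, so that count says little about how firm the calls are. With 1 sample left out the following changes took both signs or reached 0 after rounding. In Alport vehicle against wild type Avpr2 was at -0.14 to 0.08. With losartan Aqp6 was at -0.14 to 0.15 and Avpr2 at -0.22 to 0, and with metformin Aqp2 was at -0.07 to 0.40. Between the drugs Aqp3 was at -0.05 to 0.25, Aqp7 at -0.13 to 0.65, Aqp4 at -0.55 to 0.45 and Aqp11 at -0.22 to 0.02. For losartan against wild type Aqp7 was at -0.50 to 0.28. For metformin against wild type Aqp3 was at -0.28 to 0, Aqp6 at -0.29 to 0.02 and Aqp1 at -0.01 to 0.14. Not all of these were near 0 with all samples: Aqp7 stood at 0.31 between the drugs and Aqp2 at 0.21 with metformin. None of these was called. The causes were not tested.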
